A study of Mus musculus with 6 samples.

Results

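Versican, hyaluronan and the proteins that bind or process them form a hydrated pericellular matrix, and 10 genes of this matrix were followed in mesenchymal stem cells (MSC) and neural crest stem cells (NCSC) grown from mouse bone marrow. The genes are Vcan, Acan, Has1, Has2, Has3, Hyal1, Hyal2, Hapln1, Tnfaip6 and Ptx3, and each was represented by every probe set annotated to that gene alone. Of the 10 genes, 9 had such a probe set, 21 probe sets in all, out of 18193 genes with a probe set of their own on the array. Both probe sets of Hyal1 were annotated to Naa80 as well, so Hyal1 had none. The 10 genes were proposed with the difference between the cell types in view, so their own values are given as a description, with no p-value; errors and intervals of the fit are given for their size alone, and its calls are counted once beside the count for all genes.

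Gene expression was measured on Affymetrix arrays, with 3 arrays of MSC and 3 of NCSC. Per the labels, all cells came from the bone marrow of adult mice, 10 weeks old and female, on a C57BL/6 x SV129 background. All mice carried wnt1/CRE-R26R-lacZ, a Cre recombinase under Wnt1 sequences with a lacZ reporter at the R26R locus that Cre turns on, so that cells of neural crest descent and their progeny are marked. Cells were untreated, were kept in Mesencult for at least 5 passages and were then selected as clones. The labels leave unsaid whether replicates stand for distinct mice or distinct clones. P-values thus speak of the scatter among these arrays alone, possibly a technical scatter, and clone and cell type cannot be told apart.

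Hyaluronan is a long unsulphated sugar chain that the hyaluronan synthases Has1, Has2 and Has3 spin out through the plasma membrane. Versican (Vcan) and aggrecan (Acan) are large chondroitin sulphate proteoglycans that bind hyaluronan at one end, and link protein (Hapln1) clamps that bond. Tnfaip6, also called TSG-6, moves heavy chains of inter-alpha-inhibitor onto hyaluronan, and pentraxin 3 (Ptx3) ties such modified chains together, as in the matrix around the ovulated egg. Hyal1 and Hyal2 cut hyaluronan, Hyal2 at the cell surface and Hyal1 in lysosomes. Mesenchymal stromal cells are known to make versican, Has2 products and pentraxin 3.

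Values are GCRMA intensities on the log2 scale, where the lowest deposited value was 2.12. A value above 4 was taken as above background, and probe sets that passed this limit on 3 or more arrays were kept. Of all probe sets, 45.2% to 45.5% were above the limit on each array. The labelled cell types were set against marker genes. Of 9 neural crest markers, 8 were above the limit on all NCSC arrays and 3 on all MSC arrays, with Sox10 at a mean of 12.84 in NCSC and 4.30 in MSC, while Ednrb was at 2.12 on every array. Of 9 mesenchymal surface markers, 6 were above it on all MSC arrays and 7 on all NCSC arrays, with Thy1 at 2.12 and Lepr at or under 2.32 on every array. Of the others, Nt5e was under the limit in MSC and at least 22.8-fold higher in NCSC, and Eng was 25.8-fold higher in NCSC, while Vcam1 was 16.5-fold and Pdgfra 9.01-fold lower there. The labelled sex went against the arrays. The 3 Xist probe sets had means between 2.12 and 2.13 in both cell types, whereas the Y-linked Eif2s3y lay between 10.39 and 11.29 on all 6 arrays and Uty between 7.68 and 8.68. Kdm5d, also Y-linked, lay between 8.58 and 9.24 in NCSC and between 2.12 and 2.16 in MSC by its only kept probe set. Its other probe sets had means of 2.12 in both cell types. Since Xist, Eif2s3y and Uty went against the label on all 6 arrays, no comparison could be made without such arrays. Why the kept Kdm5d probe set differed between the cell types was not tested. MSC 2 and NCSC 3 stood somewhat apart from their group: 2.62% to 2.69% of tested genes were over 2-fold apart between MSC 2 and the other MSC arrays, and 4.63% to 4.98% between NCSC 3 and the other NCSC arrays, against 0.409% between MSC 1 and MSC 3 and 0.438% between NCSC 1 and NCSC 2.

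Of the 21 member probe sets 8 were kept, and the other 13 were under the limit on all 6 arrays. The 8 belong to Vcan, Has2, Hyal2 and Ptx3. Vcan and Ptx3 were bright in MSC but not above background in NCSC, Has2 and Hyal2 were measured in both cell types, and Acan, Has1, Has3, Hapln1 and Tnfaip6 were under the limit on every array. Of the 4 genes that passed the filter, 2 were called lower and 1 higher in NCSC in limma's fit, where 64.1% of all 10501 tested genes were called (Benjamini-Hochberg adjusted p under 0.05). Of all tested genes, 35% were called higher and 29.1% lower; 29% were called with a difference of at least 2-fold, and 14% were so called and lower, as were Vcan and Ptx3. Nothing is read from these counts, since the members were chosen on this contrast.

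**Figure D1:**
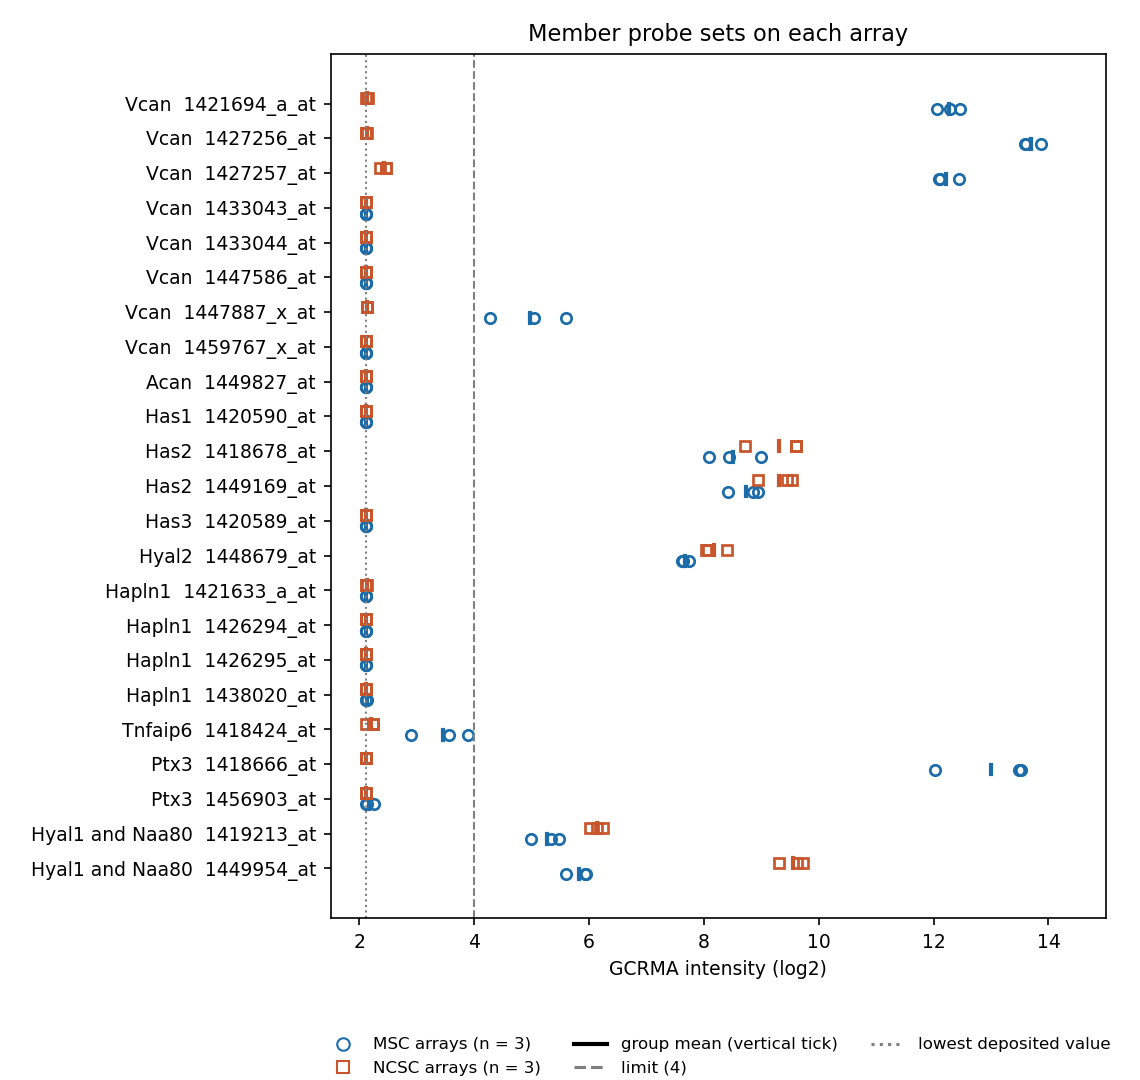
Log2 GCRMA intensity of all 21 member probe sets and of the pair shared by Hyal1 and Naa80 on each of the 3 MSC arrays (circles) and 3 NCSC arrays (squares), with group means as vertical ticks, the limit of 4 as a dashed line and the lowest deposited value of 2.12 as a dotted line. Vcan and Ptx3 are at 12.02 or above in MSC in 4 probe sets and at 2.46 or below in NCSC, while both Has2 probe sets overlap between the cell types.

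Versican was bright in MSC and at background in NCSC. Its brightest probe set (1427256_at) had log2 intensities of 13.59, 13.86 and 13.61 on MSC 1, 2 and 3 and of 2.12, 2.14 and 2.12 on NCSC 1, 2 and 3. All MSC arrays were thus far above the limit and all NCSC arrays at or near the lowest value, without overlap. The means were 13.69 ± 0.15 (SD, n = 3) in MSC and 2.13 ± 0.0088 in NCSC. With NCSC values set to the limit of 4, versican signal was at least 826-fold lower in NCSC.

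A second versican probe set against the same transcript record (1427257_at) read 12.09, 12.44 and 12.11 in MSC and 2.46, 2.36 and 2.46 in NCSC, at least 297-fold lower in NCSC. Another (1421694_a_at) read 12.06, 12.47 and 12.29 in MSC and 2.12, 2.15 and 2.13 in NCSC, at least 309-fold lower. In all 3 of these probe sets MSC 2 was the highest MSC array, by 0.26 to 0.34 over the mean of the other MSC arrays. The fourth kept probe set (1447887_x_at), whose suffix marks probes that can match other transcripts, was dim. It read 5.05, 4.28 and 5.60 in MSC and 2.14 on each NCSC array, at least 1.97-fold lower in NCSC, and here MSC 2 was the lowest MSC array. The other 4 versican probe sets were at 2.12 on all 6 arrays, also in MSC, where the first 3 were bright.

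Hapln1 and Acan gave no signal to go with versican. Hapln1, whose gene is the direct protein-coding neighbour of Vcan on chromosome 13 in RefSeq, had 4 probe sets. All of them lay between 2.12 and 2.13 on all 6 arrays. Acan, which makes the main proteoglycan of cartilage, was at 2.12 on all 6 arrays. These values only say that the probe sets did not rise above background.

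The windows of 250 bases before the gene start are shown for Vcan and Hapln1, neighbours that differed in MSC, and for Ptx3, the other member with a large difference. They are from RefSeq on GRCm38.p6, 5′ to 3′ in the direction of the gene, and capitals mark matches to the motifs searched. Of the 10 members, 8 had an entry, and Has2 and Has3 had none.
Vcan (chr13:89742513-89742762, minus strand): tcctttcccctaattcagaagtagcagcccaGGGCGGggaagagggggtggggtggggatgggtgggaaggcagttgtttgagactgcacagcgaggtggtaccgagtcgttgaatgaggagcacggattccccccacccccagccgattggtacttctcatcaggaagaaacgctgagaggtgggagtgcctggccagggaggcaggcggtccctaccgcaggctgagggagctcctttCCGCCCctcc
Hapln1 (chr13:89540386-89540635, plus strand): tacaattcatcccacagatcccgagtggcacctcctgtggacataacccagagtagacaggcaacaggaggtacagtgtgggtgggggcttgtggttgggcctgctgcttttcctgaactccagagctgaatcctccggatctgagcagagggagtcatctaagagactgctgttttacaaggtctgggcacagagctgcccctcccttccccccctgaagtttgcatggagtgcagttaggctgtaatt
Ptx3 (chr3:66219637-66219886, plus strand): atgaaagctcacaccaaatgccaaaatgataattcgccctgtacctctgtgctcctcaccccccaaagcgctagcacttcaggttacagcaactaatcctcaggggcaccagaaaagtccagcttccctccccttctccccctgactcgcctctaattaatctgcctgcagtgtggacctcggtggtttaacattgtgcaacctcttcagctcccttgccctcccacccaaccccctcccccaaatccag
Motifs were searched on both strands: the TATA box TATAAA, the AP-1 motif TGACTCA, the GC box GGGCGG and the NF-kappaB consensus. The Vcan window held 2 GC boxes, 219 and 10 bases before the start, a motif with at least 1 match in 32.7% of all windows of this length. The Hapln1 and Ptx3 windows held none of the 4 motifs. GC boxes also stood before Acan (3 matches), Hyal1 (2), Hyal2 (1) and Tnfaip6 (1). The other motifs matched among the members were an AP-1 motif for Tnfaip6, 142 bases before the start, and an NF-kappaB consensus each for Acan and Hyal2, 95 and 238 bases before it. Of all windows, 4.46% held the AP-1 motif, 7.25% the NF-kappaB consensus and 12.4% the TATA box. The Vcan window had 10 CpG dinucleotides, more than 62.2% of windows, the Ptx3 window 4 and the Hapln1 window 2. A match is a run of letters and not a bound site.

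By rule, the 3 tested genes outside the list whose centred values on the 6 arrays lay closest to those of Vcan were the imprinted adaptor Grb10, the growth factor Fgf7 and the metabolic kinase Pdk4. Their root mean square distances to Vcan were 0.16, 0.20 and 0.34 on the log2 scale over 6 arrays. All 3 were bright in MSC, at means of 13.78, 14.18 and 13.21, and dim in NCSC, at means of 2.19, 2.69 and 2.26. They were picked from all tested genes for this likeness, so nothing is read from it.

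Ptx3 was the other member with a bright signal in MSC alone. Its probe set 1418666_at read 13.52, 12.02 and 13.49 on MSC 1, 2 and 3 and the lowest value of 2.12 on each NCSC array. The MSC arrays did not overlap with the NCSC arrays, and MSC 2 was the lowest of its group. The means were 13.01 ± 0.86 (SD, n = 3) in MSC and 2.12 in NCSC, so that Ptx3 signal was at least 515-fold lower in NCSC. MSC 2 was 1.49 on the log2 scale below the mean of MSC 1 and MSC 3, a gap that 0.848% of tested genes matched or exceeded. Without MSC 2 the bound was 726-fold, and without MSC 1 or MSC 3 it was no lower than 432-fold. The second Ptx3 probe set (1456903_at) lay between 2.12 and 2.25 on all 6 arrays.

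Tnfaip6, the heavy-chain transferase that works with pentraxin 3, stayed under the limit. Its probe set read 3.56, 2.90 and 3.89 on MSC 1, 2 and 3 and 2.12, 2.24 and 2.23 on NCSC 1, 2 and 3. The groups did not overlap, but both lay in the range of background, so no fold is given. MSC 2 was again the lowest MSC array, and MSC 3 came closest to the limit.

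Has2 was the synthase measured in these cells. Probe set 1449169_at read 8.86, 8.42 and 8.94 on MSC 1, 2 and 3 and 9.45, 9.53 and 8.94 on NCSC 1, 2 and 3. The groups overlapped, because NCSC 3 was level with MSC 3, while NCSC 1 and NCSC 2 were above every MSC array. The means were 8.74 ± 0.28 (SD, n = 3) for MSC and 9.30 ± 0.32 for NCSC. The difference was 0.56 ± 0.21 (SE), or a ratio of 1.48 in favour of NCSC with a 95% confidence interval of 1.03 to 2.11, not adjusted for the number of genes. Has2 was the tested member that was not called. The other probe set (1418678_at) read 8.43, 8.09 and 8.99 in MSC and 9.60, 9.61 and 8.71 in NCSC. It differed by 0.80 ± 0.33 (SE), and NCSC 3 again lay inside the MSC range. Both probe sets had MSC 2 lowest among MSC and NCSC 3 lowest among NCSC. Without NCSC 3 their differences were 0.75 and 1.10, and without the other arrays in turn they were no lower than 0.40 and 0.60. Has1 and Has3 were each at 2.12 on all 6 arrays.

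Hyal2, the hyaluronidase at the cell surface, was slightly higher in NCSC. It read 7.64, 7.74 and 7.61 on MSC 1, 2 and 3 and 8.04, 8.07 and 8.41 on NCSC 1, 2 and 3. The groups did not overlap and MSC arrays were within 0.13 of each other, with NCSC 3 the highest. The means were 7.67 ± 0.064 (SD, n = 3) and 8.17 ± 0.20, a difference of 0.51 ± 0.12 (SE) and a ratio of 1.42 with a 95% confidence interval of 1.16 to 1.75.

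The 2 probe sets annotated to both Hyal1 and Naa80, which neighbour each other on chromosome 9, cannot be assigned to either gene. The one designed from the RefSeq transcript listed under Hyal1 (1449954_at) read 5.95, 5.93 and 5.60 in MSC and 9.73, 9.62 and 9.31 in NCSC. No array of one cell type came near the other, and its ratio was 13.2 in favour of NCSC. The one designed from the Naa80 transcript (1419213_at) read 5.33, 5.47 and 4.99 in MSC and 6.25, 6.02 and 6.14 in NCSC, a ratio of 1.83. NCSC was thus higher in both, and the size differed between them.

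Other genes of the hyaluronan and versican system were taken from 9 lists by role, 100 genes with a probe set of their own. Of these, 62 passed the filter and were tested, 23 were called higher and 22 lower in NCSC (limma, adjusted p under 0.05), and 17 were not called. That is 72.6% called, beside 64.1% of all tested genes. The median difference of the 62 genes was 0.094 on the log2 scale, beside 0.056 for all tested genes. Setting genes with only a bound to that bound left this median and those given below unchanged. A bound keeps the sign of a difference, so this could hardly move a median and is no check of it. The genes with only a bound numbered 7: Itih2, Fbln2, Tnc, B3galt6 and Nptx1, bright enough in MSC alone, and Mmp9 and Fgf2, in NCSC alone. They passed the filter only through the cell type where they were high, so the filter favoured their calls. Their values are a description, and no support is drawn from their adjusted p-values. In the lists with a tested gene, 62.5% to 100% of the tested genes were called, on few genes each, so nothing is read from the counts by list. Direction varied by list and by gene, and the differences below are NCSC minus MSC with the SE of the fit.

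**Figure D2:**
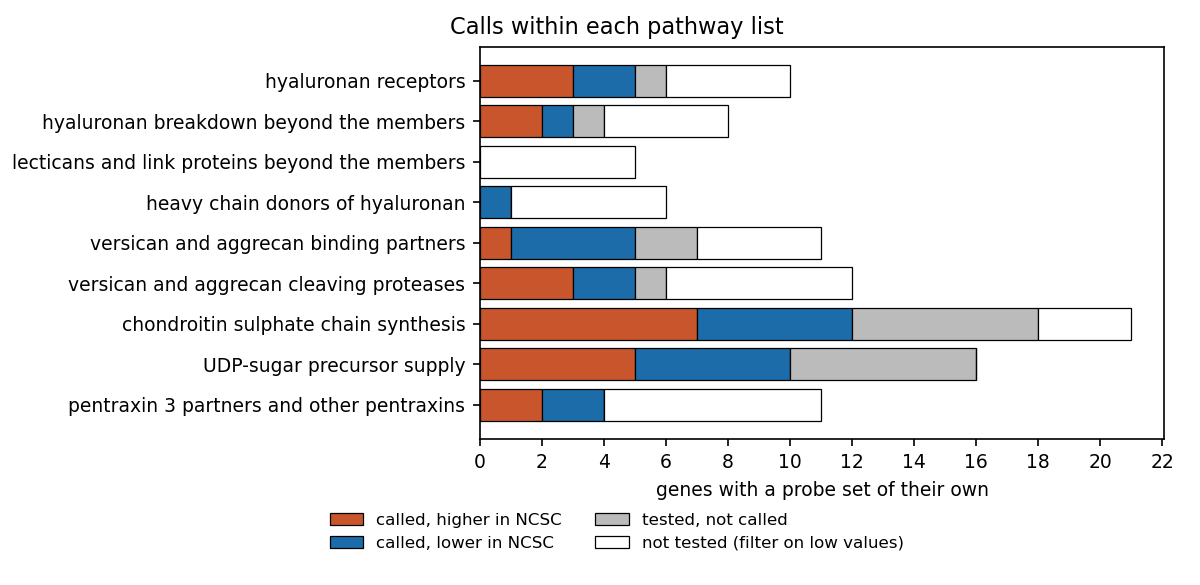
Number of genes in each of the 9 pathway lists that were called higher in NCSC, called lower, tested and not called, or left out by the filter on low values, as stacked bars over the genes with a probe set of their own. No lectican or link protein beyond the members was tested, and the list of binding partners holds 4 genes lower and 1 higher in NCSC. Of the 4 lower genes, Fbln2 and Tnc passed the filter through MSC alone.

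Among the proteins that bind versican or aggrecan, 7 of 11 genes were tested, 4 fell, 1 rose and 2 were not called, with a median difference of -2.14. That is 71.4% called, beside 64.1% of all tested genes. Of the 4 that fell, Fbln2 and Tnc passed the filter through MSC alone, and the median counts them. Fibulin 2 (Fbln2), which binds the versican end domain, read 14.60, 14.41 and 14.60 in MSC and 2.27, 2.27 and 2.46 in NCSC, at least 1488-fold lower (adjusted p = 1.2e-08). Tenascin C (Tnc), a ligand of the same domain, read 12.93, 12.82 and 13.02 in MSC and 2.60, 2.59 and 2.59 in NCSC, at least 485-fold lower (adjusted p = 1.2e-08). Both thus shared with Vcan a bright signal in MSC and none above background in NCSC. The microfibril protein Mfap5 was lower by 3.47 ± 0.25 (SE; adjusted p = 6.9e-05), and Fbln1 fell too, by 2.14 ± 0.28. Fbln1 lay close to the limit in NCSC, at 4.43, 3.77 and 4.24 on NCSC 1, 2 and 3. Thrombospondin 2 (Thbs2) went the other way, from a mean of 8.04 ± 0.31 (SD, n = 3) in MSC to 12.00 ± 0.11 in NCSC (adjusted p = 7.4e-06). Thbs1 (-0.34 ± 0.13) and fibronectin, Fn1 (-0.23 ± 0.11), were bright in both and not called (adjusted p = 0.0572 and 0.105). Calls for these 2 depended on settings: Thbs1 was called with median centring (0.0411), a trended and robust fit (0.0292) or without NCSC 1 (0.0368), within a range of 0.0292 to 0.143, and Fn1 without NCSC 3 (0.0291) or with the mean of its probe sets (2.4e-05), within a range up to 0.271. The other kept Fn1 probe set went from a mean of 12.26 for MSC to 9.56 for NCSC and was called lower, so the probe sets of Fn1 disagreed.

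Of the heavy chains that Tnfaip6 transfers, and their carrier, 1 of 6 genes was tested. Itih2, which encodes a heavy chain of inter-alpha-inhibitor, read 9.46, 9.10 and 9.36 in MSC and a constant 2.37 in NCSC, at least 39.6-fold lower (adjusted p = 1.1e-07). Itih1, Itih3 and Itih4 were at 2.12 on average in both cell types. None of the 5 other lecticans and link proteins was tested. Bcan, Ncan, Hapln2 and Hapln3 were at 2.12 throughout, and Hapln4 was above the limit on 2 NCSC arrays, at 4.41, 3.48 and 4.77 on NCSC 1, 2 and 3 against 2.34, 2.84 and 2.54 in MSC.

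Receptors and binding proteins of hyaluronan went both ways. Of 10 genes 6 were tested, 3 rose, 2 fell and 1 was not called, with a median of 0.18. Cd44, the main hyaluronan receptor of stromal cells, read 14.27, 14.32 and 14.15 in MSC and 14.56, 14.50 and 14.61 in NCSC. The difference was 0.31 ± 0.084 (SE; adjusted p = 0.0172). Its call was lost with median centring (0.0608) and without MSC 1 (0.0503), MSC 3 (0.0679) or NCSC 1 (0.0525). Another kept Cd44 probe set differed by 0.46, and the remaining one by 0.19 without a call. The range of adjusted p over all alternatives was 0.0039 to 0.0679. Hmmr, a hyaluronan receptor that also sits on the mitotic spindle, read 10.88, 10.90 and 10.79 in MSC and 9.62, 9.77 and 10.62 in NCSC, so that NCSC 3 came close to the MSC arrays. It was lower in NCSC by 0.85 ± 0.26 (adjusted p = 0.029), a call lost without the filter (0.113) and without any single array except NCSC 3 (0.0679 to 0.0946). The range over all alternatives was 0.00022 to 0.113. Its other 3 kept probe sets were called lower too, in limma's fit over kept probe sets (adjusted p = 0.0285 to 0.046). Layilin (Layn) rose by 0.47 ± 0.15 (adjusted p = 0.035), which was lost without the filter (0.107), with quantile normalization (0.0531), with median centring (0.0631) and without MSC 1 (0.0941), MSC 3 (0.0776), NCSC 1 (0.0621) or NCSC 2 (0.105), with a range of 0.0096 to 0.107.

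Tlr2, an innate immune receptor reported to sense hyaluronan fragments, rose from 7.05 ± 0.28 (SD, n = 3) to 9.79 ± 0.072 (adjusted p = 2.4e-05), a 6.67-fold difference. The related Tlr4 differed by 0.045 ± 0.099 (SE), with a 95% confidence interval of -0.20 to 0.29, and was not called (adjusted p = 0.713). Its sign turned with quantile normalization, median centring, the mean of its probe sets and without NCSC 2. Of its other kept probe sets, 1 was called lower, at -0.45. The intracellular hyaluronan-binding protein Habp4 fell by 1.26 ± 0.10 (adjusted p = 0.00011). Lyve1, the hyaluronan receptor of lymphatic vessels, and Stab2, the scavenger receptor of liver sinusoids, were at 2.12 in both cell types.

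Enzymes that break hyaluronan down split by gene. Beyond the members, 4 of 8 genes were tested, 2 rose, 1 fell and 1 was not called. Cemip, needed for hyaluronan depolymerization by fibroblasts, read 11.13, 11.20 and 11.14 in MSC and 8.82, 8.69 and 8.43 in NCSC, 5.69-fold lower (adjusted p = 1.1e-05). Its paralogue Cemip2, a transmembrane protein, read 9.93, 10.47 and 10.11 in MSC and 11.36, 11.21 and 11.41 in NCSC, 2.23-fold higher (adjusted p = 0.00092). The groups did not overlap for either gene, and they moved in opposite directions. The lysosomal hexosaminidase chain Hexa rose by 0.59 ± 0.13 (SE; adjusted p = 0.0083), and the glucuronidase Gusb was not called (-0.16 ± 0.14; adjusted p = 0.376). Hyal3, Hyal4, Hyal5 and Spam1 were not tested.

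**Figure D3:**
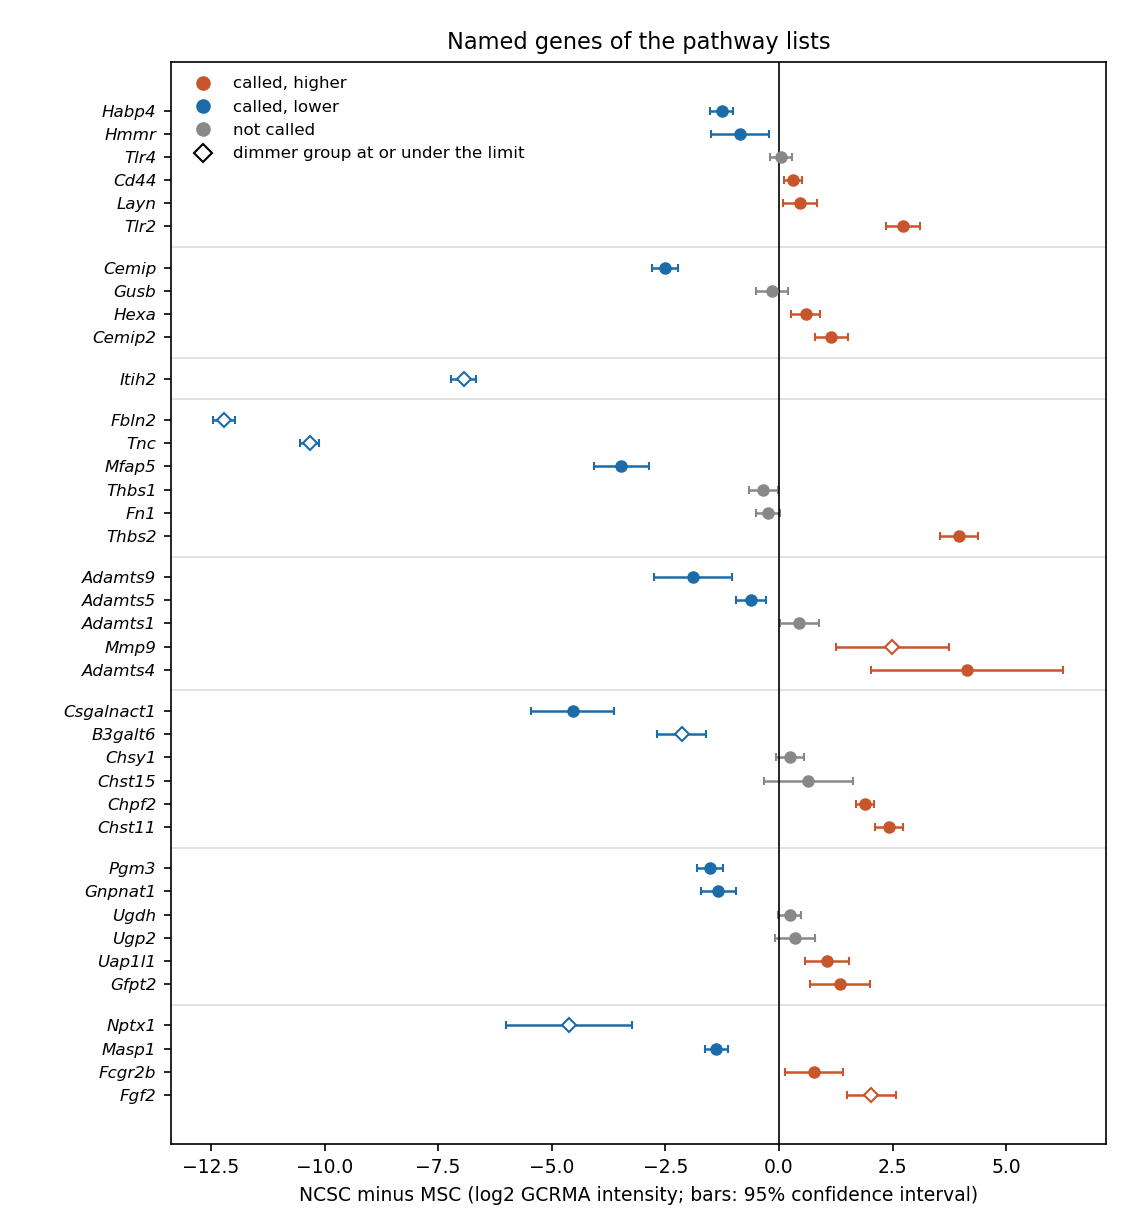
Difference NCSC minus MSC in log2 GCRMA intensity for the 38 named genes of the pathway lists, grouped by list from receptors at the top to pentraxin partners at the bottom, with 95% confidence intervals of limma's fit. Open diamonds mark genes whose dimmer group had a mean at or under the limit, where the difference rests on the lowest values, and Fbln2, Tnc and Itih2 lie farthest to the left.

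Proteases that cut versican or aggrecan also went both ways. Of 12 genes 6 were tested, 3 rose, 2 fell and 1 was not called, with a median of 0.43. Adamts4, an aggrecanase that also cuts versican, read 7.67, 10.74 and 7.54 in MSC and 13.08, 13.00 and 12.32 in NCSC. All NCSC arrays were above all MSC arrays, and MSC 2 was far above the other MSC arrays. Adamts4 was 17.7-fold higher in NCSC (adjusted p = 0.0064), or 36.6-fold without MSC 2. Adamts5 fell by 0.62 ± 0.14 (SE; adjusted p = 0.0076) and Adamts9 fell by 1.89 ± 0.35 (adjusted p = 0.0039). Adamts9 was just above the limit in NCSC, at 4.56, 4.41 and 4.10, against 5.90, 7.06 and 5.79 in MSC. Mmp9, a gelatinase, read 3.94, 3.63 and 3.89 in MSC and 6.18, 5.32 and 7.46 in NCSC, at least 4.98-fold higher (adjusted p = 0.0059). Adamts1 differed by 0.45 ± 0.18 and was not called (adjusted p = 0.0675), but was called without NCSC 3 (0.003) and with a trended and robust fit (0.0468), within a range of 0.003 to 0.189.

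Chondroitin sulphate is the side chain that gives versican its bulk, and most enzymes that build it were measured. Of 21 genes 18 were tested, 7 rose, 5 fell and 6 were not called, with a median of 0.27. Csgalnact1, which adds the first galactosamine of the chain, read 10.78, 10.81 and 10.69 in MSC and 6.12, 5.48 and 7.05 in NCSC, 23.3-fold lower (adjusted p = 0.00012). Its paralogue Csgalnact2 was lower by 1.62 ± 0.087 (SE; adjusted p = 2e-05). B3galt6, which adds a galactose of the linker to the core protein, was at least 3.14-fold lower (adjusted p = 0.0003). Among the genes that rose were the 4-O-sulphotransferase Chst11, from 9.63 ± 0.098 (SD, n = 3) to 12.05 ± 0.20 (adjusted p = 1.8e-05), and the chain polymerizing factor Chpf2, from 8.10 ± 0.038 to 10.00 ± 0.098 (adjusted p = 8.7e-06). The other kept probe set rose by less in both genes, by 0.93 for Chst11 and 0.56 for Chpf2. The synthase Chsy1, at 12.67 and 12.91, was not called (adjusted p = 0.146), nor was the sulphotransferase Chst15 (0.65 ± 0.40; adjusted p = 0.199), which was called without NCSC 3 at a difference of 1.12 (0.0019, range up to 0.48).

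Of 18 genes listed for the supply of UDP-sugars to hyaluronan and chondroitin sulphate, the 16 with a probe set of their own were tested, of which 5 rose, 5 fell and 6 were not called, with a median of 0.094. In the glucosamine branch Pgm3 fell by 1.51 ± 0.12 (SE; adjusted p = 0.0001) and Gnpnat1 by 1.33 ± 0.16 (adjusted p = 0.00061), while Uap1l1 rose by 1.06 ± 0.20 (adjusted p = 0.0041). Gfpt2, an isoform of the entry enzyme, read 4.25 on every MSC array and 6.10, 5.69 and 5.00 in NCSC (adjusted p = 0.0052). The constant MSC value lies just above the limit. The far brighter isoform Gfpt1 went the other way, from a mean of 13.14 in MSC to 12.48 in NCSC (adjusted p = 0.0013). Another kept Gfpt1 probe set fell by 1.52 and was called, and the remaining one fell by 0.36 without a call. Ugdh, which makes the glucuronic acid donor, read 13.11, 12.95 and 13.03 in MSC and 13.34, 13.37 and 13.10 in NCSC and was not called (adjusted p = 0.0839), nor was Ugp2 (0.36 ± 0.18; adjusted p = 0.128). Both were called without NCSC 3, at 0.0157 for Ugdh and 0.0011 for Ugp2, within ranges up to 0.216 and 0.326.

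Among partners of pentraxin 3 and other pentraxins, 4 of 11 genes were tested, 2 rose and 2 fell. The neuronal pentraxin Nptx1 read 6.42, 8.38 and 6.19 in MSC and 2.16, 2.38 and 2.59 in NCSC, at least 8.0-fold lower (adjusted p = 0.00069), or 4.95-fold without MSC 2. Masp1, a protease of the lectin pathway of complement, fell by 1.38 ± 0.10 (SE; adjusted p = 7.9e-05). Fgf2, a growth factor that pentraxin 3 binds, was under the limit in MSC and at 5.54, 5.46 and 4.80 in NCSC, at least 2.41-fold higher (adjusted p = 0.00037). The Fc receptor Fcgr2b rose by 0.77 ± 0.26 (adjusted p = 0.0385), a call lost without the filter (0.137), with quantile normalization (0.0649) or median centring (0.0562), and without MSC 1 (0.106), MSC 3 (0.118), NCSC 1 (0.0994) or NCSC 3 (0.0897), with a range of 0.0207 to 0.137. NCSC 2, at 5.81, was below MSC 2, at 5.84.

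Markers of other cells were read beside these results. Of 10 macrophage and blood cell markers, 2 were above the limit on all MSC arrays and 3 on all NCSC arrays, and their summed log2 level was 7.50 to 7.68 in MSC and 9.69 to 9.89 in NCSC. Of the 4 that were tested, 3 were called higher in NCSC and 1 was not called, beside 35% of all tested genes called higher. Cd68 had a mean of 8.80 in NCSC and 2.77 in MSC, whereas Ptprc, which defines blood cells, was at 2.12 on every array. Cd14, left out by the filter, went the other way, at 4.63, 3.96 and 5.15 on MSC 1, 2 and 3 and at most 2.19 in NCSC. Of 8 smooth muscle and fibroblast markers 5 were above the limit on all MSC arrays and 5 on all NCSC arrays, but not the same 5. Cnn1 was above it in MSC alone (means of 12.31 and 2.38 in NCSC), and Des in NCSC alone (3.04 in MSC and 4.95). Of the 6 tested, 5 were called lower in NCSC and 1 higher, beside 29.1% lower and 35% higher of all tested genes. Pdpn was 182-fold lower, with its NCSC mean of 4.58 just above the limit. The summed level was 16.49 to 16.61 in MSC and 14.60 to 14.87 in NCSC. Cnn1 and Des, like Cd68, passed the filter only through the cell type where they were high, so the filter favoured their calls. Of 8 endothelial markers 7 were never above the limit, with a summed level of 6.90 to 7.46 in MSC and 6.06 to 6.19 in NCSC. Of 7 chondrocyte markers 4 were never above it, among them Comp at 2.12, with a summed level of 8.83 to 9.55 in MSC and 8.45 to 9.12 in NCSC. Of the 3 tested, Sox9 was called lower in NCSC (means of 7.26 in MSC and 3.79 in NCSC). Matn3 was called higher (4.9 and 6.2), and Col11a1 was not called. The part of these cell types in the values of Vcan, Ptx3 and Tlr2 was not tested, and in these bulk samples fewer cells of a type and less RNA per cell cannot be told apart.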

How the data were processed

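The authors deposited 1 table of intensities for probe sets. It came from GCRMA per the submitters' processing notes (the version is not given in the sources used here), and its values, from 4.36 to 116597, showed a linear scale. Each was taken to log2, with no further normalization. Of 45101 probe sets, 34945 were annotated to 1 gene. The brightest kept probe set stood for a gene in the test of 10501 genes by lmFit and eBayes of limma (version 3.58.1, under R version 4.3.3), two-sided, with Benjamini-Hochberg adjustment. Member probe sets were read singly, with the SE of the same fit over kept probe sets. Calls given for a gene's other kept probe sets came from that fit, with its own Benjamini-Hochberg adjustment over kept probe sets. A group mean not above 4 has only a bound, so folds against it ("at least") used 4 for each of its arrays under 4. Alternatives were other filters, a floor at 4, quantile normalization, median centring, the mean of a gene's probe sets, a trended and robust fit, the replicate number as a block, and each array left out. The fit was tested on simulated data. Per pathway list, up to 4 called genes with the largest difference and up to 2 uncalled genes with the highest mean were named by rule, plus Cd44 and Hmmr. Fbln1, Csgalnact2 and Gfpt1, markers and untested genes were named after their values were seen. The members and lists were chosen with earlier results of these data known. Of the samples' columns, 0 were left out. The number of arrays limits the precision.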

Additional observations from a re-analysis of the deposited data

How the results depend on the processing

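Of 14 alternatives, none moved the count of called genes (6731) by more than 1.5 times: it ran from 5706 to 7184. The kept member probe sets, recomputed under 10 of them, kept their direction and stayed within 1 SD of the reported value; the bound of Vcan (1427256_at) ran from 778-fold to 854-fold and that of Ptx3 from 432-fold to 726-fold. Pathway genes called higher (23) ran from 17 to 25, and lower (22) from 19 to 23. Called hyaluronan receptors (5) numbered 3 without the filter, 3 with median centring, and 2 to 5 when 1 array was left out. Without the filter 1 lectican or link protein was called, and with a limit of 6 there were 3 called proteases and 2 called pentraxin genes, since fewer genes were tested. Tlr4 differed by -0.013 with quantile normalization, -0.018 with median centring and -0.15 with the mean of its probe sets, and by -0.015 to 0.13 with 1 array left out. Of 526 recomputed values of the 38 named genes, 485 kept direction and call, 26 lost the call, 11 gained it and 4 turned sign; where no reason is given the cause was not tested. With the replicate number as a block, 6257 genes were called, 6130 of them also called without it, and Cd44 (adjusted p = 0.0618) and Fcgr2b (0.0878) lost and Adamts1 (0.0407) gained a call. Same-numbered arrays deviated together at r = -0.098, 0.062 and 0.073, so the numbers were not taken to pair the samples. Arrays give no reading below background, so levels of Vcan and Ptx3 in NCSC have only an upper limit.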
